A study of Mus musculus with 4 samples.

Results

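Ribosome production joins 2 sets of genes, the ribosomal proteins that stay in the finished particle and the assembly factors that make ribosomal RNA, cut it and fold it with those proteins. The genes described here are 9 of the 56748 gene IDs in the count tables of this series: the ribosomal proteins Rps20 and Rpl30, the poly(A) binding protein Pabpc1, and 6 assembly factors, Polr1e, Nol6, Pop1, Brix1, Tex10 and Mdn1. They were chosen by symbol, because they lie on parts of mouse chromosomes 4 and 15 where earlier results of these data found names and reads to meet. Ribosome production starts in the nucleolus, where RNA polymerase I transcribes the ribosomal RNA precursor. Assembly factors then bind, process and leave the 2 growing subunits before export to the cytoplasm. Lymphocytes that respond to antigen grow before they divide, and growth needs new ribosomes.

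All 4 mice had experimental autoimmune encephalomyelitis (EAE), a model of multiple sclerosis in which immune cells attack the brain and spinal cord, and their lymph nodes were taken. The BrQ group was 2 mice (replicates 1 and 3) treated with 2-bromo-1,4-naphthalenedione, a brominated naphthoquinone, and the Vehicle group was 2 control mice (replicates 1 and 3). Each mouse gave 1 library of total RNA. The sources used here give no strain, sex, age, dose or time of sampling.

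The libraries held 6813832 to 7989226 reads in gene intervals, while 86.8% to 88.8% of all read rows fell in no gene interval. Mitochondrial reads took 15.8% and 12.1% of gene reads in BrQ replicates 1 and 3, and 20.6% and 30.3% in Vehicle replicates 1 and 3. All 9 genes lie in 2 windows, chromosome 4 from 3 to 62 Mb and chromosome 15 from 8 to 38 Mb of GRCm38 (mm10), which hold 447 protein-coding genes. Names were not shown to sit on their own reads for each gene, and a partial offset inside the windows was not tested. Of the marker lists, the B cell genes Pax5 and Cd72 and the T cell genes Il7r, Sit1 and Tox lie in the windows and all had reads. Of the lymph node stroma genes, Ccl21a had 0 reads in all 4 libraries. Ccl19 had 27 and 8 in BrQ, against 5 and 0 in Vehicle. How reads matching several places were treated is not stated, so a 0 does not show that a gene or cell type was absent. In bulk tissue, fewer cells of a type and less RNA per cell cannot be told apart.

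Of the ribosomal protein names, only Rps20 and Rpl30 are read here. The windows were chosen with earlier results of these data known, so the reads below restate that choice and do not test it. Ribosomal protein genes belong to the most abundant messenger RNAs of growing cells. Averaged over the 4 libraries, Rps20 held 34069 reads and Rpl30 held 19334. The other 80 cytosolic ribosomal protein names, all outside the windows, had a median of 1 read, 59 of them under 10 reads, and the highest held 1856. Those 80 are not interpreted. The surroundings of each gene were checked with the 10 nearest protein-coding genes on each side, with predicted models and some tissue-restricted families (olfactory, vomeronasal and taste receptors, keratins, defensins and the like) left out; other genes of restricted expression were kept. At least 50 reads were found for 17 of 20 neighbours of Polr1e, 15 of 20 of Nol6 and 14 of 20 of Pabpc1. The numbers were 12 of 20 for Mdn1, 11 of 20 each for Rpl30, Pop1 and Tex10, and 9 of 20 for Brix1. Rpl30 and Pop1 are neighbours of each other and share most of their other neighbours, some of them also with Pabpc1, so these are not separate checks. Rps20, near the start of its chromosome, had 7 of 13. Around the 80 ribosomal protein names outside the windows the median was 5 of 20, with a range of 0 to 17, so the neighbourhoods of the genes described here overlapped that range.

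**Figure D1:**
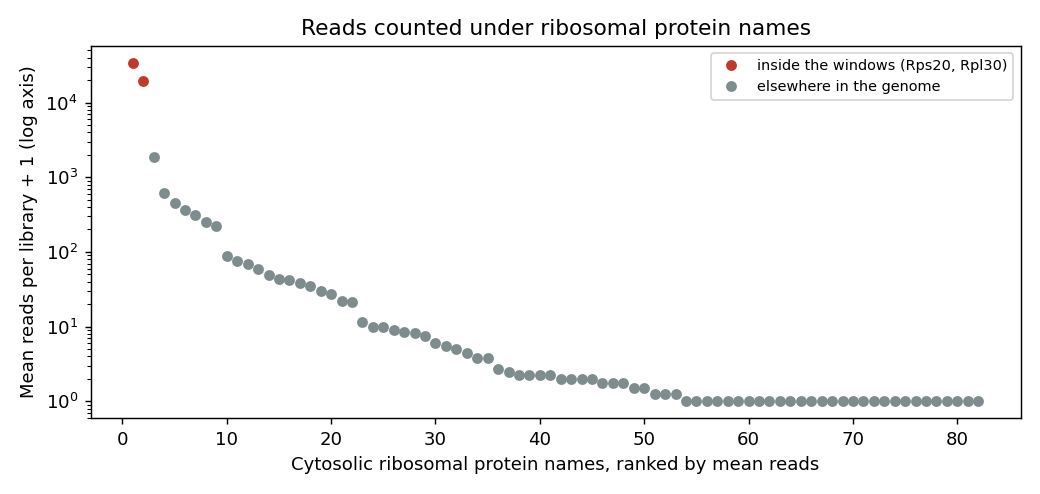
Mean reads per library plus 1 (log axis) under each of the 82 cytosolic ribosomal protein names, ranked from highest to lowest, with names inside the windows in red and all others in grey. Rps20 (34069 reads) and Rpl30 (19334 reads) stand above every other ribosomal protein name, of which the highest held 1856.

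The start regions of the assembly factors are shown for the 4 of 9 genes that RefSeq's promoter table (GRCm38.p6) held. Each stretch runs 5′ to 3′ on the gene's strand, from 100 bases before to 30 bases after the annotated start, and capitals mark a complete motif.

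Brix1, chr15:10485908-10486037, minus strand: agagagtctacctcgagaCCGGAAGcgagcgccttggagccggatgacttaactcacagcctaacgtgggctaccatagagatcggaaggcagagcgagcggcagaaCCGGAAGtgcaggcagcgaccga
Tex10, chr4:48473434-48473563, minus strand: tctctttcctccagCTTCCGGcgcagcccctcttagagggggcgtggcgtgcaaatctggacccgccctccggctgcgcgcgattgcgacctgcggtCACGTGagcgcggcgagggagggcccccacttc
Polr1e, chr4:45018509-45018638, plus strand: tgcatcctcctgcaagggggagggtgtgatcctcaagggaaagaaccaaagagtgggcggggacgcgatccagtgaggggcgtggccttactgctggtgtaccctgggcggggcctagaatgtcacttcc
Mdn1, chr4:32657019-32657148, plus strand: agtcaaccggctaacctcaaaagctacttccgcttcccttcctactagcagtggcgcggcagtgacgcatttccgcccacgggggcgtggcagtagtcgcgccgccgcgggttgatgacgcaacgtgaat

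The motifs searched on both strands were CCGGAAG (reverse CTTCCGG), the core bound by ETS family factors, and CACGTG, the E-box bound by MYC with MAX among others; they do not overlap each other here. In the full window of 300 bases, 250 before and 50 after the start, the ETS core was found in 3 of the 4 genes and in 8.86% of all 32851 promoters of that length. Brix1 and Tex10 each held it at 2 positions, and Polr1e at 1. The match in Polr1e and the later one in Tex10 begin inside the stretch shown and are cut by its end, so they are not in capitals. The E-box was found in Tex10 and Mdn1 (in Mdn1 past the stretch shown) and in 7.15% of all promoters. In Tex10 it starts at the third base before the start. A match describes letters only; no binding was measured.

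Treated and control mice were compared to see which of these transcripts differed with BrQ. Rps20, a protein of the small subunit, was 1.77-fold lower in BrQ, and Pabpc1, which coats the poly(A) tails of messenger RNAs and promotes their translation, was 1.57-fold higher. Polr1e, a subunit of RNA polymerase I, was 1.57-fold lower, and Pop1, a subunit of RNase P and RNase MRP, was 1.54-fold lower. Rpl30 and the assembly factors Nol6, Brix1, Tex10 and Mdn1 did not pass the test. Values are CPM, read counts scaled to a common library total after a trimmed-mean correction (TMM), and the test was edgeR's quasi-likelihood test over all 10223 features, at an adjusted p under 0.05. Of the 9 genes, 1 passed as higher and 3 as lower. An unadjusted p under 0.05 was seen in 6. The share of all features at that unadjusted threshold was not computed. It cannot be lower than the share that passed at the adjusted threshold, so the 6 are not read as a result either. At the adjusted threshold 45.7% of all features passed, 23.6% higher and 22.2% lower. In the windows 44.8% of 339 passed, 17.1% higher and 27.7% lower. A count of 4 of 9 is near that background, so the number of calls is not a result about these genes.

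**Figure D2:**
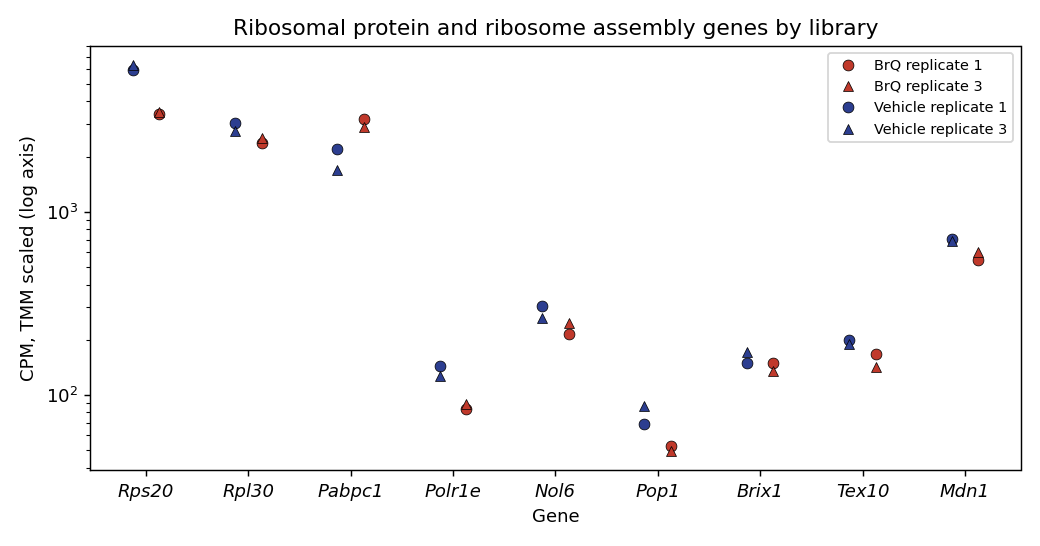
CPM (TMM scaled, log axis) of the 9 genes in each library, Vehicle in blue and BrQ in red, circles for replicate 1 and triangles for replicate 3. Rps20 lies at 3418 and 3507 CPM in BrQ against 5946 and 6309 in Vehicle, while Pabpc1 lies higher in BrQ and the Brix1 libraries nearly meet.

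Rps20 (ENSMUSG00000028234, chr4:3831334-3835665, minus strand) encodes a protein of the small ribosomal subunit. It stood at 3418 and 3507 CPM in BrQ replicates 1 and 3 and at 5946 and 6309 CPM in Vehicle replicates 1 and 3. Both BrQ libraries lay below both Vehicle libraries, and the gap between groups was wider than the gap within either. Its log2 fold change was -0.82 with an SE of 0.12 and passed (adjusted p = 0.000708, edgeR). Over 16 alternative settings the call was kept in 16, with log2 fold changes from -0.89 to -0.45 and adjusted p up to 0.046. Its exons share 1.67% of their bases with a small RNA gene on the same strand. Merged over GENCODE M21 transcripts, they cover 4080 bases in 2 blocks, and those of Rpl30 3020 bases in 2 blocks. That is most of each gene's span, so spliced and unspliced RNA were not told apart.

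Rpl30 (ENSMUSG00000058600, chr15:34440505-34443640, minus strand) encodes a protein of the large subunit. It stood at 2373 and 2522 CPM in BrQ and at 3048 and 2766 CPM in Vehicle, in the order replicate 1, replicate 3. The groups did not overlap, but the step between them was close to the spread within Vehicle. The log2 fold change was -0.25 (SE 0.12) and did not pass (adjusted p = 0.125, edgeR); it passed in 0 of 16 alternatives, where its adjusted p ran from 0.0577 to 0.832. Exons of Rpl30 share 24.8% of their bases with other genes, 20.4% with the antisense D730044K07Rik, so reads on that part are uncertain where strand was not used. The tables also list 9 Rpl30 pseudogene rows, the highest with a mean of 187.3 reads. The sources used here do not say how reads matching several places were treated, and the row for such reads is 0 in all 4 tables.

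The 2 ribosomal proteins can be compared inside each library, where scaling cancels. The ratio of Rps20 to Rpl30 reads was 1.44 and 1.39 in BrQ, against 1.95 and 2.28 in Vehicle. All 4 libraries held more Rps20 than Rpl30 reads, by a wider margin in Vehicle. The mean log2 ratio was 0.50 ± 0.04 (SD, n = 2) in BrQ against 1.08 ± 0.16 (SD, n = 2) in Vehicle, so BrQ minus Vehicle was -0.58. No p is given for ratios: with 2 mice against 2, a two-sided exact permutation test cannot go below 0.33.

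Pabpc1 (ENSMUSG00000022283, chr15:36595661-36609668, minus strand) binds poly(A) tails, and its own messenger RNA belongs with those of the ribosomal proteins to the class whose translation follows growth signals. It stood at 3189 and 2902 CPM in BrQ and at 2201 and 1681 CPM in Vehicle. The lower BrQ library was above the higher Vehicle library, and Vehicle replicate 3 was the lowest of the 4. Its level rose by 0.65 (log2 fold change, SE 0.15, adjusted p = 0.00685, edgeR). The call was kept in 15 of 16 alternatives; without Vehicle replicate 3 the log2 fold change was 0.46 and did not pass (adjusted p = 0.0573, edgeR). Per read of Rps20 in the same library, Pabpc1 had 0.933 and 0.828 reads in BrQ, against 0.370 and 0.267 in Vehicle. That ratio was the widest difference between groups among those computed, 1.48 on the log2 scale, from a mean of -1.67 ± 0.34 in Vehicle to -0.19 ± 0.12 in BrQ (SD over 2 mice).

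Polr1e (ENSMUSG00000028318, chr4:45018583-45036565, plus strand) encodes a subunit of RNA polymerase I, which transcribes the ribosomal RNA precursor. It stood at 83.9 and 88.9 CPM in BrQ and at 143.4 and 127.2 CPM in Vehicle. The BrQ libraries were close to each other and below both Vehicle libraries. Its level fell by 0.65 (log2 scale, SE 0.15, adjusted p = 0.00732, edgeR). The call was lost in 3 of 16 alternatives: with library size alone (-0.28, adjusted p = 0.239, edgeR), without BrQ replicate 1 (-0.59, adjusted p = 0.0685, edgeR) and without BrQ replicate 3 (-0.68, adjusted p = 0.0649, edgeR).

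Pop1 (ENSMUSG00000022325, chr15:34495304-34530648, plus strand) encodes the largest protein of RNase MRP, which cuts the ribosomal RNA precursor, and of RNase P, which trims transfer RNAs. It stood at 52.3 and 49.3 CPM in BrQ and at 69.6 and 86.7 CPM in Vehicle, the lowest levels of the 9 genes. Vehicle replicate 3 was the highest library, and the groups did not overlap. The fall of 0.62 (log2 scale, SE 0.18, adjusted p = 0.0172, edgeR) was called in 9 of 16 alternatives. The call was lost with library size alone, library size from all read rows, scaling on the windows and no low count filter, and without BrQ replicate 1, BrQ replicate 3 or Vehicle replicate 3, with adjusted p from 0.0644 to 0.338 (edgeR).

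The small subunit processome factor Nol6 (ENSMUSG00000028430, chr4:41114427-41124455, minus strand) stood at 214.9 and 246.2 CPM in BrQ and at 303.7 and 261.0 CPM in Vehicle. The higher BrQ library lay just below the lower Vehicle library. Its log2 fold change was -0.29 (SE 0.15, adjusted p = 0.127, edgeR) and did not pass.

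Brix1 (ENSMUSG00000022247, chr15:10474779-10485947, minus strand) is a nucleolar factor that large subunit assembly needs. It stood at 148.5 and 135.2 CPM in BrQ and at 148.8 and 171.0 CPM in Vehicle. BrQ replicate 1 and Vehicle replicate 1 were nearly equal. It had the smallest difference of the 9 genes, a log2 fold change of -0.17 (SE 0.15, adjusted p = 0.366, edgeR). It turned positive with library size alone (0.21), library size from all read rows (0.04) and scaling on the windows (0.02).

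Tex10 and Mdn1 act together late in the nucleolus and nucleoplasm: Tex10 belongs to the rixosome, a complex on large subunit precursors, and Mdn1 is a giant ATPase that strips assembly factors from them. Tex10 (ENSMUSG00000028345, chr4:48430858-48473459, minus strand) stood at 166.2 and 141.9 CPM in BrQ and at 199.3 and 188.3 CPM in Vehicle. Mdn1 (ENSMUSG00000058006, chr4:32657119-32775217, plus strand) stood at 541.8 and 601.2 CPM in BrQ and at 707.3 and 690.4 CPM in Vehicle. In both genes the BrQ libraries were below the Vehicle libraries. The log2 fold changes were -0.33 (SE 0.15, adjusted p = 0.0899, edgeR) for Tex10 and -0.29 (SE 0.13, adjusted p = 0.0874, edgeR) for Mdn1, and neither passed. Tex10 shares 5.16% of its exonic bases with the antisense gene Invs.

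Direction depended on scaling for most of these genes. Their CPM groups did not overlap in 9 of 9 genes, but the same held for 76.1% of all features, 39.9% as higher and 36.2% as lower. Of the 9, 8 were lower, as were 208 of the 339 features in the windows and 4940 of all 10223 features. The median over the 9 genes was a log2 fold change of -0.29 and over the 6 assembly factors -0.31, against -0.22 for the 339 features in the windows and 0.05 for all features. With library size alone the median of all features moved up by 0.37, with library size from all read rows by 0.21 and with TMM factors from the windows by 0.19. With library size alone Rpl30 (0.12), Nol6 (0.07), Tex10 (0.04) and Mdn1 (0.08) also turned positive, none passing. Scaled on the windows, where the features' median was -0.03, Rps20 was at -0.63 (adjusted p = 0.00278, edgeR), Polr1e at -0.46 (adjusted p = 0.0369, edgeR) and Pabpc1 at 0.84 (adjusted p = 0.00261, edgeR). The mitochondrial share moved with the groups too; with mitochondrial features left out, Rps20 was at -0.82 and Pabpc1 at 0.65.

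**Figure D3:**
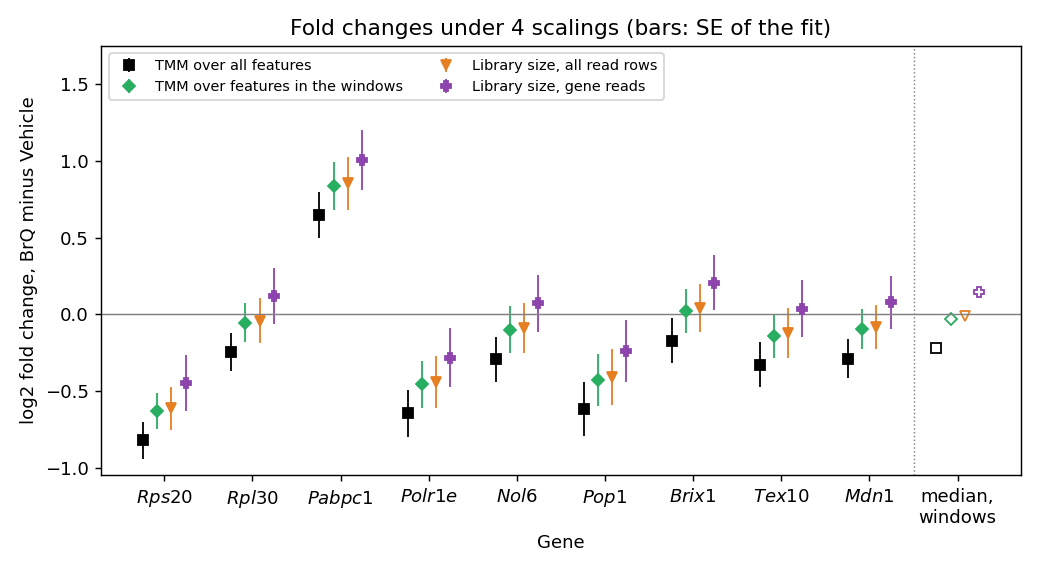
Log2 fold change of BrQ minus Vehicle for the 9 genes under 4 scalings (filled markers, bars show the SE of the edgeR fit), with the median of features in the windows as open markers at the right. Rps20, Polr1e and Pop1 lie below 0 and Pabpc1 above 0 under each of the 4, while Rpl30, Nol6, Brix1, Tex10 and Mdn1 move across 0 with library size alone.

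Ratios of reads to Mdn1, the assembly factor with the most reads and chosen as denominator after its values were seen, removed the scaling. Rpl30 had 4.38 and 4.195 reads per Mdn1 read in BrQ and 4.31 and 4.01 in Vehicle, so the groups overlapped, with a difference of 0.05 on the log2 scale. Nol6 had 0.397 and 0.410 in BrQ and 0.429 and 0.378 in Vehicle, a difference of 4e-04. Brix1 and Tex10 overlapped as well, with differences of 0.12 and -0.04. In these 4 genes the difference was smaller than the larger SD of either group.

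The other 4 genes, which are the same ones that passed the test above, differed from Mdn1. Rps20 had 6.31 and 5.83 reads per Mdn1 read in BrQ and 8.41 and 9.14 in Vehicle, a log2 difference of -0.53. Pabpc1 had 5.89 and 4.83 in BrQ and 3.11 and 2.44 in Vehicle, a difference of 0.95. Polr1e had 0.155 and 0.148 in BrQ and 0.203 and 0.184 in Vehicle, a difference of -0.35. Pop1 had 0.0965 and 0.0820 in BrQ and 0.0984 and 0.126 in Vehicle, a difference of -0.32 in which BrQ replicate 1 and Vehicle replicate 1 were close. In these 4 genes the groups did not overlap. How many of all features separate the groups by their ratio to Mdn1 was not computed. For CPM it was 76.1% of all features, so the number of genes that separate is not a result about them.

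**Figure D4:**
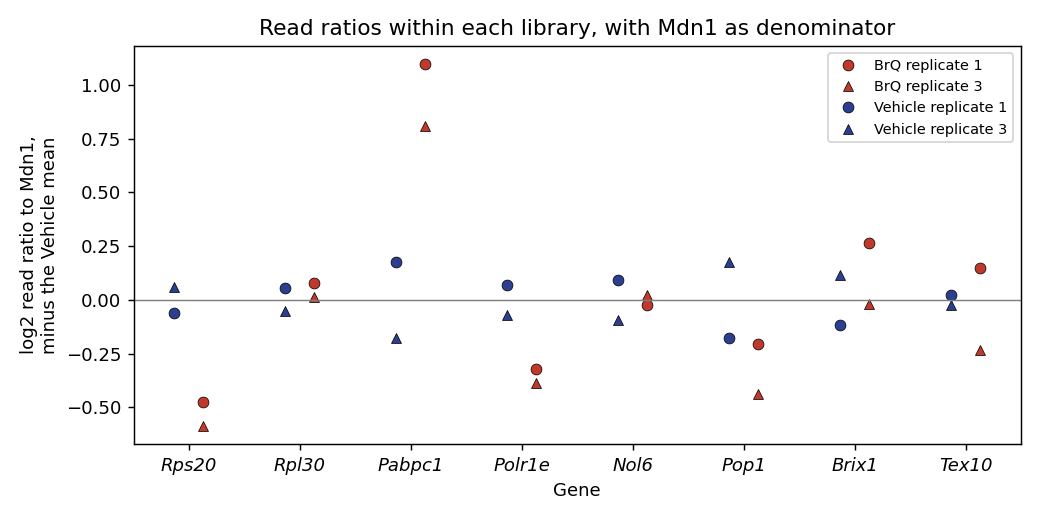
Log2 ratio of reads to Mdn1 reads in each library, minus the Vehicle mean of that gene, with Vehicle in blue, BrQ in red, circles for replicate 1 and triangles for replicate 3. The libraries of Rpl30, Nol6, Brix1 and Tex10 overlap between groups; Rps20, Polr1e and Pop1 are lower in BrQ (differences of -0.53, -0.35 and -0.32) and Pabpc1 is higher (0.95).

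Set against the assembly factors as a class, the ribosomal proteins lay slightly lower in both BrQ libraries than in both Vehicle libraries. The mean log2 CPM of Rps20 and Rpl30 minus that of the 6 assembly factors was 4.22 and 4.28 in BrQ and 4.41 and 4.38 in Vehicle. The BrQ libraries were lower by 0.14 on average (4.25 ± 0.05 against 4.397 ± 0.02, SD, n = 2 each), and no p is given for a score over chosen genes. Both classes were uneven inside: Rps20 passed and Rpl30 did not, and Polr1e and Pop1 passed while 4 other assembly factors did not. Whether the members of a class differed from each other in response was not tested beyond these ratios.

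Levels between genes were compared per kb of the longest GENCODE M21 transcript tagged as principal (CPM per kb). The ribosomal proteins and Pabpc1 stood at 596.9 CPM per kb or more in every library, and the 6 assembly factors at 66.0 or less. In Vehicle the order of assembly factors was Nol6 (61.4), Tex10 (60.5), Brix1 (60.01), Polr1e (45.3), Mdn1 (38.9) and Pop1 (23.0). The first 3 overlapped between libraries, and each later step was larger than the spread within the genes. In BrQ the order was Brix1 (53.3), Nol6 (50.1), Tex10 (48.1), Mdn1 (31.8), Polr1e (28.9) and Pop1 (14.96), again with the first 3 overlapping, and with Mdn1 and Polr1e close to each other. Polr1e stood above Mdn1 in both Vehicle libraries and below it in both BrQ libraries. Rps20 has an annotated principal transcript of 3706 bases and Rpl30 one of 886, so their order by length rests on those gene models and is not given.

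Of 383 symbols in 9 lists on ribosomes and translation, older names included, 21 lay in the windows; these are the 9 genes above and 12 others. Of the 11 others tested, 1 passed as higher and 4 as lower in BrQ, against 44.8% of features called in the windows. Their median log2 fold change was -0.30, and -0.22 in the windows. Rmrp, the RNA of RNase MRP, was listed under more than 1 gene ID, each at 0 reads in all 4 libraries, and was not tested. Whether these IDs overlap was not checked, and reads that fit more than 1 gene were counted in a row that names no gene. The 0 therefore does not show that this RNA was absent.

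The nuclear RNA decay factor Zcchc7 stood at 379.8 and 325.4 CPM in BrQ and at 637.2 and 775.0 CPM in Vehicle. Its level fell by 1.002 (log2 scale, SE 0.15, adjusted p = 0.000764, edgeR) and was called in 16 of 16 alternatives. Rpp25l, related to a protein subunit of RNase P and MRP, stood at 70.9 and 64.0 CPM in BrQ and at 126.5 and 114.0 CPM in Vehicle. It fell by 0.83 (SE 0.16, adjusted p = 0.00247, edgeR) and lost the call only with library size alone (adjusted p = 0.0553, edgeR). In both genes the BrQ libraries lay well below the Vehicle libraries.

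The other calls in these lists were less stable. Tars, the threonyl-tRNA synthetase, was at 289.5 and 294.8 CPM in BrQ and 348.8 and 421.4 in Vehicle (-0.40, adjusted p = 0.0428, edgeR). Trmt10b, a transfer RNA methyltransferase, was at 33.0 and 27.1 CPM in BrQ and 40.4 and 50.3 in Vehicle (-0.59, adjusted p = 0.0374, edgeR). Otud6b, a deubiquitinase linked to translation initiation, was at 84.9 and 64.6 CPM in BrQ and 56.4 and 47.3 in Vehicle (0.53, adjusted p = 0.0457, edgeR). Tars and Trmt10b were each called in 8 of 16 alternatives and Otud6b in 7. Exosc3 of the RNA exosome, Tgs1, Mrpl50, Rars2 and Polr2k did not pass, with log2 fold changes from -0.48 (Polr2k) to 0.25 (Tgs1).

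Markers of cell types and of division moved unevenly with the groups, so their members are given beside the sums. Summed CPM of the B cell genes Pax5 and Cd72, 2 of 6 listed, ran from 2075 to 2126 in BrQ and from 3254 to 3391 in Vehicle. Cd72 passed as lower (-1.007, adjusted p = 0.000285, edgeR) and Pax5 did not pass (-0.22, adjusted p = 0.155, edgeR). The sum of the T cell genes Il7r, Sit1 and Tox, 3 of 7 listed, ran from 679.2 to 754.8 in BrQ and from 1005 to 1070 in Vehicle, most of it from Il7r. Il7r (-0.61, adjusted p = 0.00616, edgeR) and Sit1 (-0.78, adjusted p = 0.00362, edgeR) passed as lower. Tox went the other way and passed as higher (0.72, adjusted p = 0.00682, edgeR), at 80.6 and 71.5 CPM in BrQ, against 46.6 and 45.4 in Vehicle. Cell cycle genes Ccne2, Smc2 and Melk, 3 of 5 listed, summed to 279.0 to 311.1 in BrQ and 202.0 to 246.3 in Vehicle, most of it from Smc2. Smc2 (0.58, adjusted p = 0.0128, edgeR) and Melk (0.61, adjusted p = 0.0151, edgeR) passed as higher. Ccne2 did not pass, with both BrQ libraries below both Vehicle libraries (-0.46, adjusted p = 0.111, edgeR). Of these calls, Cd72 was kept in 16 of 16 alternatives, Tox in 15, Il7r and Sit1 in 14, Melk in 13 and Smc2 in 12. None of these lists had all members in the windows, and their part in the differences of Rps20, Pabpc1, Polr1e and Pop1 was not tested.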

How the data were processed

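Lymph node RNA of 4 EAE mice was sequenced in paired ends, 1 library per mouse, per the labels' protocols. Trim Galore 0.6.2, HISAT2 2.1.0, HTSeq 0.11.2 and mm10 are named in the submitters' processing notes; no annotation release or strand setting is named there. Raw read counts were deposited for 56748 gene IDs, of which 52073 had a GENCODE M21 position. The 5 closing rows that name no gene (87.0% to 89.0% of read rows) were kept out of library sizes. The exception is the alternative with library size from all read rows, which includes them. Groups and replicate numbers came from sample titles. Libraries within a group differed beyond sampling noise (chi-square per degree of freedom 12.4 in BrQ, 26.6 in Vehicle). The labels do not say whether replicates differ in more than the mouse, so p-values measure the spread between these 4 libraries.

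Tests used edgeR 4.0.16 (quasi-likelihood, filterByExpr, TMM, group as the only term) in R 4.3.3, with Benjamini-Hochberg adjustment over all features. SEs were derived from the fold change and the F statistic. Log2 CPM used a prior count of 2. Members, windows and lists were chosen with earlier results of these data known. All 9 members are named; other pathway genes in the windows are named if past the threshold, plus up to 6 others, not all of which are reported here. Alternatives were other scalings and filters, the legacy fit, DESeq2 1.42.0, limma 3.58.1 (voom), the replicate number as a block, and each library left out. Figures used matplotlib 3.10.9.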

Additional observations from a re-analysis of the deposited data

Results flagged for a closer look

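Read rows in no gene interval were not tested for a difference between groups. In the fits they were used only in the alternative that took library size from all read rows. Their mean share was 88.7% in BrQ, above the 87.3% of Vehicle, and it was higher in each BrQ library than in each Vehicle library.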

How the results depend on the processing

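The calls of Rps20, Zcchc7 and Cd72 were kept under each of 16 alternatives, and no direction of Rps20, Pabpc1, Polr1e or Pop1 changed. With library size alone Rpl30 (0.12), Nol6 (0.0706), Brix1 (0.21), Tex10 (0.0366), Mdn1 (0.079), Rars2 (0.11), Exosc3 (0.25), Mrpl50 (0.0748) and Pax5 (0.147) turned positive; so did Brix1 (0.0405) and Exosc3 (0.0899) when all read rows set the library size, and Brix1 (0.0202) and Exosc3 (0.0709) with scaling on the windows. With library size alone 1 of the 9 genes was called lower, in place of 3, and over all features 3607 were called higher and 1072 lower, in place of 2409 and 2267. In the windows it gave 103 higher and 31 lower, in place of 58 and 94; lower calls there were 59 when all read rows set the library size and 58 with scaling on the windows. With no low count filter 1307 features were higher and 1174 lower, 34 and 47 of them in the windows. Of the 11 other pathway genes, in place of 1 higher and 4 lower, library size alone gave 3 and 1, library size from all read rows and scaling on the windows each gave 2 and 2, and no low count filter and the replicate block each gave 0 and 2. DESeq2, limma voom, DESeq2 size factors in edgeR and upper quartile factors gave 0 higher. With 1 library left out, its group is 1 mouse assumed to vary like the other group. Counts then ran from 0 to 1 higher and 1 to 3 lower among the 9 genes, from 1116 to 2135 and 915 to 2241 over all features, from 28 to 45 and 28 to 106 in the windows, and from 0 to 1 and 2 to 4 among the other pathway genes. The lowest counts over all features came without BrQ replicate 3. The labels do not say what the replicate number pairs, and deviations of same-numbered libraries correlated at -0.12 over features; with the replicate block, 1 of the 9 genes was higher and 3 lower. The ribosomal protein minus assembly factor difference stayed between -0.18 and -0.11. The causes of these shifts were not tested. Genes near 50 CPM, such as Pop1, rest on 382 to 565 reads per library, and with 2 mice per group a p that misses the threshold does not show equal levels.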
